A study of Xenopus laevis with 6 samples.

Results

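The pluripotency factors of the early frog ectoderm were examined in day 7 Xenobots and in whole embryos of the same age. The group consisted of the pou5f3, ventx, lin28 and klf4 genes of Xenopus laevis. It was taken as every row of the deposited count table whose symbol, without its .L or .S ending, was pou5f3.1, pou5f3.2, pou5f3.3, ventx1.1, ventx1.2, ventx2.1, ventx2.2, lin28a, lin28b or klf4. This gave 20 gene copies for 10 symbols in 4 families, out of 42638 rows in the table. Each symbol had a copy on a long (.L) and a short (.S) chromosome of this allotetraploid species, and such a pair is called homeologs.

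Basal Xenobots are motile constructs that form without sculpting from an ectoderm explant, the animal cap, here cut from wild-type embryos at stage 9. Each of the 3 Xenobot libraries was prepared from 50 Xenobots collected together on day 7, and each of the 3 embryo libraries from 10 wild-type stage 35 embryos. All were raised at 14 °C without further treatment, the Xenobots in 0.75X MMR (Marc's Modified Ringers, a salt solution) and the embryos in 0.1X MMR, so that the effects of medium and of explantation cannot be told apart. In a separate comparison of whole embryos raised in these media, the study reported few changed transcripts. That comparison held no explants. The study's methods describe replicates in general as independent samples from separate batches. The labels do not give the clutch of each pool, and the p-values measure the spread between these pools.

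The pou5f3 genes encode POU-domain transcription factors, the frog counterparts of mammalian Oct4, which hold cells of the blastula in an uncommitted state and restrain their response to inducing signals. The ventx genes encode homeobox repressors that act downstream of BMP in ventral cells and have been compared with mammalian Nanog. Lin28a and Lin28b bind RNA and block the maturation of let-7 microRNAs, while Klf4 is a zinc finger factor used in mammalian reprogramming and needed, in the mouse, for the skin barrier. Transcripts of the pou5f3 and ventx genes are abundant in the frog blastula and gastrula, and most fade as germ layers differentiate.

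The libraries held 13597538 to 20325075 counts in Xenobots and 17533207 to 22225123 in embryos, of which ribosomal RNA took 26.4 to 36.9% in Xenobots and 27.1 to 40.7% in embryos. A count of 0 allows up to 3 counts in a library, or, before TMM scaling, 0.148 to 0.221 CPM (a gene's counts scaled to a common library size) in Xenobots and 0.135 to 0.171 CPM in embryos. The labelled tissues were checked against marker genes. Epidermal markers summed to 15023 to 15575 CPM in Xenobots and 2511 to 3383 CPM in embryos, with 23 of 25 tested copies higher in Xenobots and 1 lower at an adjusted p under 0.05. Muscle markers summed to 25.9 to 281 CPM in Xenobots and 6998 to 11416 CPM in embryos, with 19 of 19 tested copies lower in Xenobots at the same threshold. Among all tested rows, 29.6% were higher in Xenobots and 36.2% lower at this threshold. Endoderm and liver markers summed to 18.2 to 29.2 CPM in Xenobots and 2819 to 2976 CPM in embryos, and blood markers to 3.63 to 5.87 CPM in Xenobots and 506 to 696 CPM in embryos. Neural markers summed to 122 to 126 CPM in Xenobots and 733 to 987 CPM in embryos. Of 25 tested copies, 24 were lower in Xenobots and 1, syt1.L, higher at an adjusted p under 0.05. The neuronal genes elavl3.L, nefm.L, neurod1.L and neurod1.S were at 0 counts in every Xenobot pool. Because the RNA came from whole pools, fewer cells of a type and less RNA per cell cannot be told apart.

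The first question was whether any of these factors differed between Xenobots and embryos. Copies of lin28a, lin28b and klf4 were counted in every pool, and most of them were lower in Xenobots. Of these, lin28a.S and klf4.S had low counts in Xenobot pools, at 14 to 23 and 17.6 to 37.4. The pou5f3 and ventx copies had few counts in both groups, with pou5f3.1.L the most frequently counted of them in Xenobots. All 6 copies of lin28a, lin28b and klf4 exceeded 0.6 CPM before TMM scaling in all 6 libraries, and all 14 copies of pou5f3 and ventx missed the requirement of 0.6 unscaled CPM in at least 3 libraries. In limma-voom, 5 of the 6 tested copies were lower in Xenobots at an adjusted p under 0.05, where 36.2% of all 26752 tested rows were. None (0) of the 6 was higher at this threshold, at an unadjusted p under 0.05, or in edgeR or DESeq2, where 29.6% of all tested rows were higher at the adjusted threshold in limma-voom. With the added requirement of a log2 fold change below -2, 1 of 6 copies passed, close to the 20.5% of all tested rows. At a log2 fold change above 2, 0 of 6 passed, against 5.75% of all tested rows. The median log2 fold change was -0.80 over the 6 copies and -0.07 over all tested rows. The CPM of the groups did not overlap for 4 of the 6 copies, all of them lower in Xenobots. Among all tested rows, 71.7% did not overlap and 38.9% did so with Xenobots lower.

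**Figure D1:**
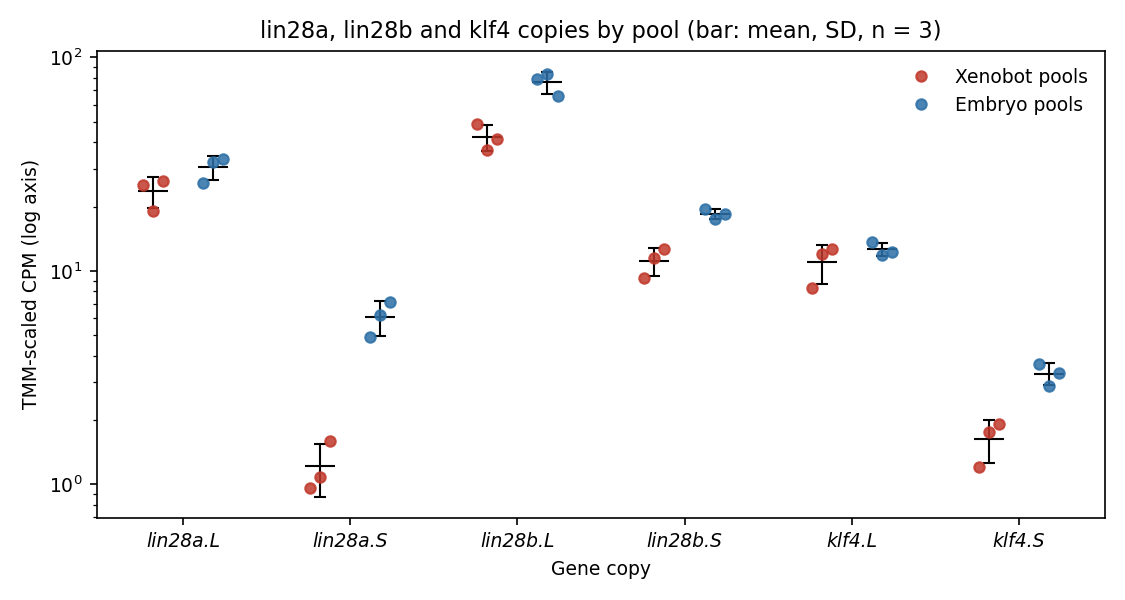
CPM (vertical log axis, scaled with TMM factors) of the 6 tested gene copies in each pool, with Xenobot pools in red to the left of embryo pools in blue, and bars for the mean and SD of 3 pools. The groups are apart for lin28a.S, lin28b.L, lin28b.S and klf4.S, and overlap for lin28a.L and klf4.L.

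Among the lin28 genes, the lin28a.S copy showed the largest difference. It lies on chromosome 2S at 67146875 to 67166142 (assembly version 10.1, as are all positions given here). Xenobot pools held 14, 23 and 19 counts of lin28a.S, against 105, 115 and 154 in embryo pools. Scaled for library size and composition, these were 0.961, 1.08 and 1.59 CPM in Xenobots and 4.90, 6.21 and 7.15 CPM in embryos. Every Xenobot pool was below every embryo pool. The copy was 5.07-fold lower in Xenobots by the limma fit, and its mean CPM was 1.21 ± 0.336 against 6.09 ± 1.13 (SD, n = 3 each). The fitted log2 fold change was -2.34 (SE 0.31, 95% interval -3.04 to -1.64, limma adjusted p = 9.62e-05), and lin28a.S was the one member past both thresholds.

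Its homeolog lin28a.L, on chromosome 2L at 61343097 to 61361438, differed much less. Its level was 25.2, 19.1 and 26.2 CPM in Xenobot pools and 25.9, 32.4 and 33.3 CPM in embryo pools. At this scaled level the groups overlapped, since Xenobot pool 3 was above embryo pool 1. Before TMM scaling they did not, at 20.1 to 23.5 CPM in Xenobots and 31.7 to 32.3 CPM in embryos. The log2 fold change was -0.40 (SE 0.15, 95% interval -0.74 to -0.06, limma adjusted p = 0.0419). This call did not hold without Xenobot pool 1 (adjusted p = 0.0517) or 2 (0.169), or without embryo pool 2 (0.121) or 3 (0.132), all from limma.

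Both copies of lin28b were lower in Xenobots by similar amounts. The lin28b.L copy, on chromosome 5L at 83624754 to 83725677, was at 48.6, 36.8 and 41.5 CPM in Xenobot pools and 79.3, 83.4 and 65.9 CPM in embryo pools. The lin28b.S copy, on chromosome 5S at 66787608 to 66846388, was at 9.30, 11.5 and 12.6 CPM in Xenobot pools and 19.4, 17.4 and 18.5 CPM in embryo pools. For both copies the highest Xenobot pool was below the lowest embryo pool. By the fit, lin28b.L was 1.81-fold lower in Xenobots, a log2 fold change of -0.85 (SE 0.13, 95% interval -1.16 to -0.55, limma adjusted p = 0.000294). The fitted value of lin28b.S was 1.67-fold lower, or -0.74 in log2 (SE 0.13, 95% interval -1.04 to -0.44, adjusted p = 0.000741 in limma).

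Added together, the lin28 copies gave 1224, 1460 and 977 counts in Xenobot pools and 2774, 2582 and 2689 in embryo pools. The scaled sum was 84.0, 68.5 and 81.9 CPM in Xenobots and 129, 139 and 125 CPM in embryos, without overlap. It fell by 0.75 on the log2 scale in Xenobots (SE 0.11, 95% interval -1.002 to -0.51, limma adjusted p = 0.000183). The sum of the lin28a copies had a log2 fold change of -0.59 (SE 0.15) and that of the lin28b copies -0.83 (SE 0.11), with limma adjusted p = 0.00694 and 0.00012.

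Of the klf4 copies, klf4.S was lower in Xenobots and klf4.L did not pass the test. The klf4.L copy, on chromosome 1L at 130611901 to 130623993, was at 8.33, 12.0 and 12.6 CPM in Xenobot pools and 13.6, 11.9 and 12.2 CPM in embryo pools. Only Xenobot pool 1 was below all embryo pools, and the groups overlapped. Its fitted log2 difference of -0.22 (SE 0.16, adjusted p = 0.267 in limma) had a 95% interval from -0.58 to 0.15, and was -0.04 without Xenobot pool 1 and -0.03 in the deposited adjusted values. The klf4.S copy, on chromosome 1S at 110278642 to 110290212, was at 1.21, 1.76 and 1.91 CPM in Xenobot pools and 3.66, 2.88 and 3.33 CPM in embryo pools, without overlap. It was 2.03-fold lower in Xenobots by the fit, or -1.02 in log2 (SE 0.26, 95% interval -1.61 to -0.44, adjusted p = 0.00617 in limma). The sum of the klf4 copies, dominated by klf4.L, was 139, 293 and 173 counts in Xenobots and 370, 274 and 335 in embryos. It did not pass the test, at -0.35 in log2 (SE 0.16, 95% interval -0.72 to 0.01, adjusted p = 0.0791 in limma), but passed when Xenobot pool 3 was left out (-0.44, adjusted p = 0.048).

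The second question was whether the balance between homeologs differed. The .S copy made up 3.67, 5.34 and 5.72% of lin28a counts in Xenobot pools and 15.9, 16.1 and 17.7% in embryo pools. For klf4 it made up 12.6, 12.8 and 13.2% in Xenobots and 21.2, 19.5 and 21.4% in embryos. For both pairs each Xenobot pool had a smaller .S share than each embryo pool. How many of all homeolog pairs were apart in this way was not counted. Among single tested rows, 71.7% did not overlap in CPM. For lin28b the shares overlapped, at 16.1, 23.8 and 23.3% in Xenobots and 19.6, 17.3 and 21.9% in embryos.

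The log2 ratio of .L to .S (with 0.5 CPM added to each copy) differed between Xenobots and embryos by 1.57 for lin28a, 0.64 for klf4 and -0.13 for lin28b. Exact two-sided permutation tests gave p = 0.1, 0.1 and 0.6 (0.15, 0.15 and 0.6 after adjustment over the 3 pairs). The smallest p that 3 against 3 pools can give is 0.1, so the tests for lin28a and klf4 were at that limit and could not pass 0.05. A limma fit of the log2 ratio over 6667 homeolog pairs, which differs from these tests in its offset as well as in the test, was added after these values were seen. It called 2 of the 3 pairs different, where 38.6% of all pairs were called. There the difference was 1.93 for lin28a (SE 0.20, limma adjusted p = 0.00135), 0.80 for klf4 (SE 0.10, 0.0024) and -0.12 for lin28b (SE 0.23, 0.719). The lin28a difference was larger in size than that of 89.1% of pairs, and the klf4 difference than that of 68.1%. RSEM divides reads that match both homeologs, which leaves counts that are not whole. The lin28a copies had whole counts (within 0.01) in 5 of 6 pools, the lin28b copies in 1 of 6 and the klf4 copies in 0 of 6, while the sum of each pair was whole in all 6. The levels of single lin28b and klf4 copies thus depended on this division in more pools than those of lin28a. How many reads were divided was not counted, so the size of this uncertainty is not known. The lin28a.S copy had only 14 to 23 counts in Xenobot pools, and the largest SE of the 6 tested copies (0.31).

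**Figure D2:**
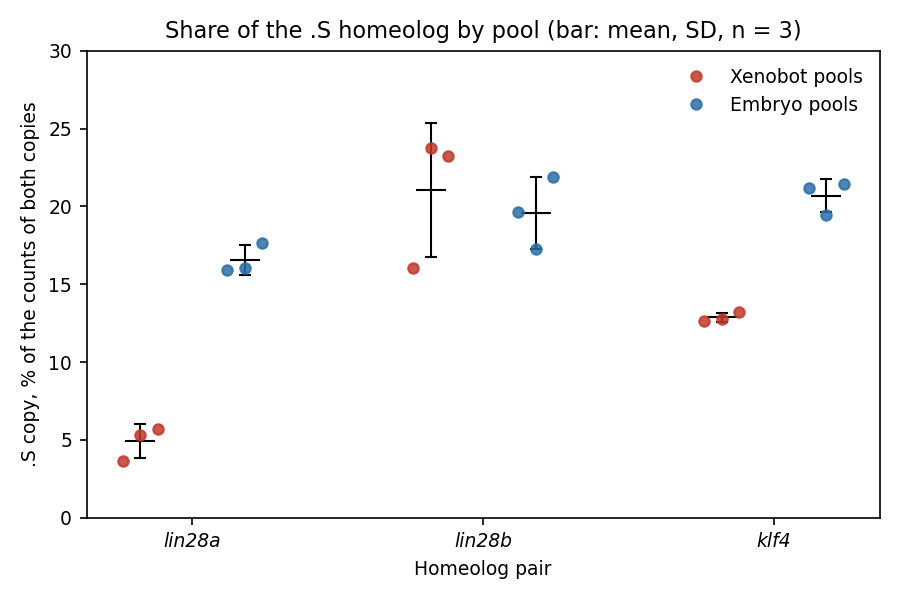
Share of the .S copy in the counts of both homeologs (vertical axis, percent) for lin28a, lin28b and klf4, with Xenobot pools in red to the left of embryo pools in blue, and bars for the mean and SD of 3 pools. The mean share was 4.91% in Xenobots and 16.6% in embryos for lin28a, 21.0% in Xenobots and 19.6% in embryos for lin28b, and 12.9% in Xenobots and 20.7% in embryos for klf4.

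The third question was whether transcripts of pou5f3 and ventx could still be detected. The pou5f3 genes lie side by side on chromosomes 8L and 8S. Of these, pou5f3.1.L, a zygotically transcribed copy at 2304047 to 2308547 on chromosome 8L, was counted 9, 16 and 25 times in Xenobot pools and 2, 9 and 1 times in embryo pools. Its scaled levels were 0.618, 0.750 and 2.095 CPM in Xenobots and 0.0934, 0.486 and 0.0464 CPM in embryos. Every Xenobot pool was above every embryo pool on the scaled level, although Xenobot pool 1 and embryo pool 2 had the same count. Pooled over the libraries, 50 counts in Xenobots gave 1.01 CPM without TMM scaling (95% exact Poisson interval 0.749 to 1.33), against 12 counts and 0.205 CPM (0.106 to 0.358) in embryos. These intervals cover counting error alone.

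Because Xenobot pool 1 was at 0.577 CPM before scaling, just under the limit of 0.6, pou5f3.1.L was not tested in the main fit. With no filter, limma gave a log2 fold change of 2.63 (adjusted p = 0.0101). Filters that let the copy in through its Xenobot pools could keep it only where it was high there, and are no further support. The same holds for the gene list of the deposited adjusted table, which includes pou5f3.1.L. Single pools were left out in a fit over that list only, where the log2 fold change lay between 2.01 and 3.41 and the call was lost without embryo pool 3 (limma adjusted p = 0.0553). An exact two-sided permutation test of pou5f3.1.L on log2(CPM + 0.1) gave p = 0.1, the smallest 3 against 3 pools allow (0.15 after adjustment over 3 such tests).

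The other pou5f3 copies gave few counts. The homeolog of pou5f3.1.L, pou5f3.1.S, was counted 1, 3 and 6 times in Xenobot pools and 1, 1 and 2 times in embryo pools. Copies of pou5f3.2 had at most 2 counts in any Xenobot pool and at most 1 in any embryo pool, and those of pou5f3.3, whose transcripts are stored in the egg, likewise had at most 2 in any Xenobot pool and 1 in any embryo pool. At this depth no difference of these single copies was detectable. Summed, the pou5f3 family was counted 13, 23 and 35 times in Xenobot pools and 5, 12 and 5 times in embryo pools. The scaled sum was 0.892, 1.08 and 2.93 CPM in Xenobots and 0.233, 0.648 and 0.232 CPM in embryos, and the groups did not overlap. Its log2 fold change was 1.97 (SE 0.57, 95% interval 0.68 to 3.26, limma adjusted p = 0.0123), and pou5f3.1.L supplied 50 of its 71 counts in Xenobots and 12 of 22 in embryos. The call was lost without embryo pool 1 (1.73, adjusted p = 0.0521 in limma). As for pou5f3.1.L, the sum would not have passed the filter on its embryo pools alone, so the filtered call is no further support. With no filter, limma gave the sum a log2 fold change of 1.99 (adjusted p = 0.0122).

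**Figure D3:**
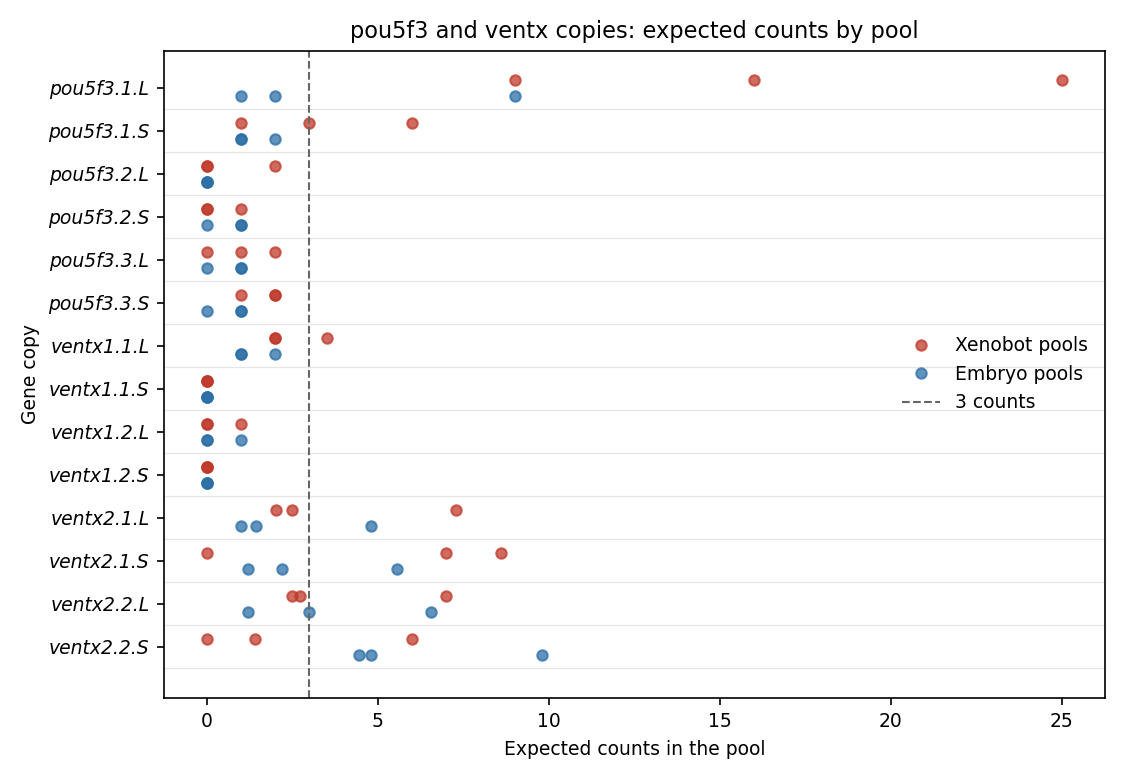
Expected counts (horizontal axis) of the 14 pou5f3 and ventx copies in each pool, with Xenobot pools in red above embryo pools in blue and a dashed line at 3 counts. The pou5f3.1.L copy reached 25 counts in a Xenobot pool and 9 in an embryo pool, and every other copy stayed under 10 in all pools.

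The ventx genes, clustered on chromosomes 7L and 7S, were detected at similar low levels in both groups. The Vent1-type copies ventx1.1.S and ventx1.2.S were at 0 in all pools. Their homeolog ventx1.2.L had at most 1 count in any pool, and ventx1.1.L was counted 3.52, 2 and 2 times in Xenobots and 1, 1 and 2 times in embryos. The Vent2-type genes ventx2.1 and ventx2.2 shared reads within each chromosome. Their counts were seldom whole, but the tandem sums were whole in 6 of 6 pools. The ventx2 sum on 7L was 10, 9 and 5 counts in Xenobots and 6, 4 and 8 in embryos. On 7S it was 10, 6 and 7 counts in Xenobots and 10, 6 and 12 in embryos. As counts, the groups overlapped on both chromosomes. Scaled for library size they overlapped on 7S but not on 7L, where every Xenobot pool was slightly above every embryo pool.

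Over all ventx copies, 56 counts in Xenobots corresponded to 1.13 CPM without TMM scaling (95% exact Poisson interval 0.854 to 1.47), and 51 counts in embryos to 0.870 CPM (0.648 to 1.14). By pool the scaled sum was 1.61, 0.797 and 1.26 CPM in Xenobots and 0.840, 0.594 and 1.02 CPM in embryos. The log2 fold change of this sum was 0.48 (SE 0.39, limma adjusted p = 0.306), with a 95% interval from -0.40 to 1.36, and so includes both a decrease and an increase. It was 0.83 (adjusted p = 0.0813 in limma) without Xenobot pool 2, and 0.27 without Xenobot pool 1 and 0.28 without embryo pool 2. Of the 20 member copies, 7 had at most 3 counts in every pool, namely pou5f3.2.L, pou5f3.2.S, pou5f3.3.L, pou5f3.3.S, ventx1.1.S, ventx1.2.L and ventx1.2.S.

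**Figure D4:**
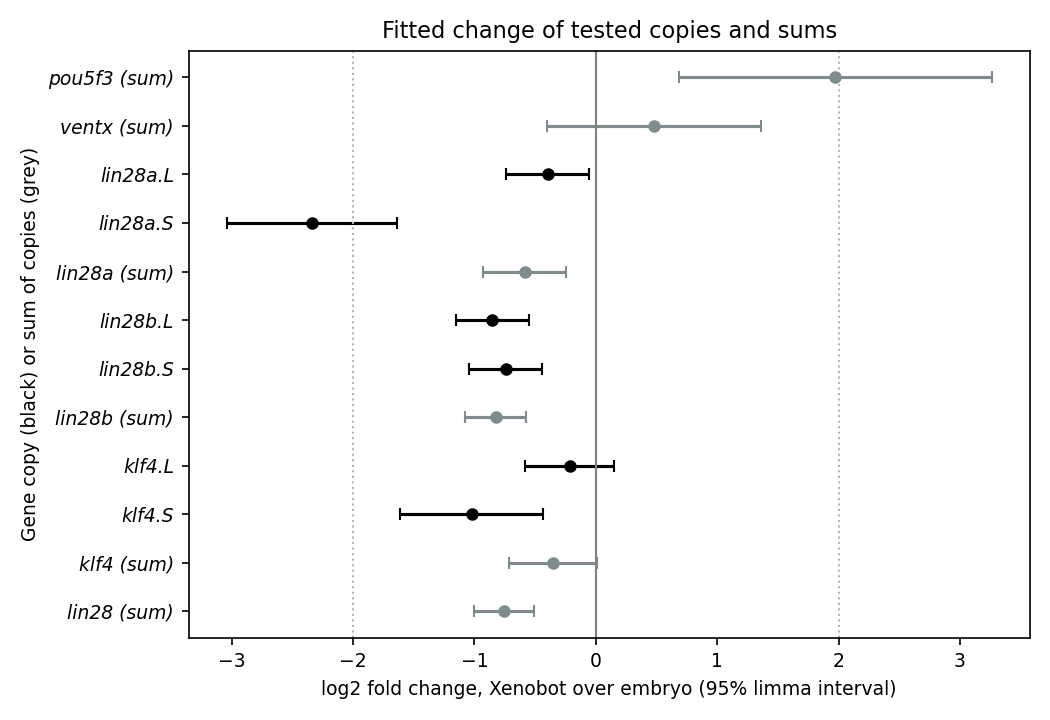
Fitted log2 fold change of Xenobots over embryos (horizontal axis) with 95% limma intervals, for tested copies (black) and sums of copies (grey); dotted lines mark -2 and 2. The lin28 values lie below 0, from -2.34 for lin28a.S to -0.40 for lin28a.L. The pou5f3 sum, which would not have passed the filter on its embryo pools alone, lies above 0 at 1.97.

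Several marker lists moved in the same libraries as the lin28 and klf4 copies. Among all tested rows, 20.5% were lower and 5.75% higher past both thresholds, and 36.2% and 29.6% at the adjusted p alone. Neural markers, which summed to 122 to 126 CPM in Xenobots and 733 to 987 CPM in embryos, were lower in 22 of 25 tested copies and higher in 0, past both thresholds. Much of the Xenobot sum came from syt1.L, a synaptic vesicle gene at 77.7 ± 3.91 CPM in Xenobots and 21.5 ± 1.12 CPM in embryos (SD, n = 3 each), which was higher in Xenobots (log2 difference 1.85, adjusted p = 5.63e-07 in limma). Tail bud markers summed to 29.7 to 43.2 CPM in Xenobots and 96.4 to 103 CPM in embryos, with 12 of 21 lower and 0 higher past both thresholds. In this list cdx1.L and cdx1.S had 0 counts in all Xenobot pools, whereas wnt3a.L and wnt3a.S were higher in Xenobots at the adjusted p alone (log2 differences of 1.03 and 0.84, adjusted p = 0.000558 and 0.013 in limma). Neural crest markers summed to 208 to 266 CPM in Xenobots and 393 to 430 CPM in embryos, with 8 of 16 lower and 0 higher past both thresholds. Primordial germ cell markers summed to 173 to 205 CPM in Xenobots and 211 to 232 CPM in embryos, with 3 of 10 lower and 0 higher past both thresholds, and 6 lower and 2 higher at the adjusted p alone. Among the defining genes of germ cells, dazl.L had 0 to 2 counts in Xenobots and 6 to 12 in embryos, and nanos1.L had 0 counts in Xenobots and 2 to 4 in embryos. Others did not follow, as ddx4.L was at 12.37 ± 2.35 CPM in Xenobots and 9.38 ± 1.21 CPM in embryos (SD, n = 3 each), and tdrd6.L and tdrd7.L were higher in Xenobots (log2 differences of 0.97 and 0.80, adjusted p = 0.000787 and 0.000151 in limma). The ddx4, tdrd6, tdrd7, syt1 and wnt3a copies were picked after their values were seen. The part of these cell types in the lin28, klf4 and pou5f3 values was not tested.

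The neighbours of the members in their pathways were then counted. They are set beside all tested rows, of which 20.5% were lower and 5.75% higher past both thresholds. At the adjusted p alone these shares were 36.2% and 29.6%. Of 36 tested copies in a list of let-7 and Lin28 pathway genes, 2 were lower and 0 higher past both thresholds, with 15 lower and 6 higher at the adjusted p alone, and a median log2 fold change of -0.11. Both copies past the thresholds belonged to hmga2, a chromatin protein gene whose mRNA is a let-7 target in mammals. The hmga2.L copy was at 25.4 ± 4.29 CPM in Xenobots and 321 ± 8.90 CPM in embryos (SD, n = 3 each), for a log2 difference of -3.65 (SE 0.13, adjusted p = 2.35e-07 in limma). For hmga2.S the log2 difference was -4.18 (SE 0.27, adjusted p = 1.15e-06 in limma). The 6 copies higher at the adjusted p alone were arid3b.L, arid3b.S, kras.S, nras.L, trim71.S and tut7.S. Among them arid3b.L had a log2 difference of 1.37 and trim71.S of 0.71 (adjusted p = 1.62e-06 and 0.000562 in limma). These copies were named after their values were seen. The let-7 RNAs themselves were not analysed here.

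Of 55 tested copies of BMP pathway genes and ventral targets, the setting in which ventx genes act, 7 were lower and 5 higher past both thresholds, with a median of 0.11. At the adjusted p alone, 14 were lower and 24 higher, where 36.2% and 29.6% of all tested rows were. The epidermal homeobox gene dlx3.S was higher in Xenobots, at 91.7 ± 14.2 CPM against 11.2 ± 2.04 CPM in embryos (SD, n = 3 each), for a log2 difference of 3.03 (SE 0.16, adjusted p = 5.81e-07 in limma). The type I BMP receptor copies bmpr1b.L and bmpr1b.S and the posterior homeobox gene evx1.L were lower, at log2 differences of -4.77, -5.08 and -4.55. These sizes are uncertain, since Xenobot pools held 2 to 7 counts of bmpr1b.L and 1 to 2 of bmpr1b.S and of evx1.L.

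Of 46 tested copies of other regulators of pluripotency and the early embryo, 16 were lower and 2 higher past both thresholds, with a median of -0.65. At the adjusted p alone, 27 were lower and 12 higher. At a mean of 1 CPM or more, those with the largest changes were zic1.S, sox2.L, zic1.L and eomes.S, with log2 fold changes of -8.17, -8.11, -7.24 and -5.72. Of these, zic1 and sox2 also mark the neural plate and its derivatives, and eomes encodes a T-box factor of mesendoderm and forebrain. The zic1.S copy was at 0 in all Xenobot pools, so that its fitted value depends on the offset voom adds. The 2 copies higher past both thresholds, named after their values were seen, were tfap2c.L and foxi2.L. Their log2 fold changes were 2.37 and 2.12 (adjusted p = 4.57e-07 and 0.000269 in limma).

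**Figure D5:**
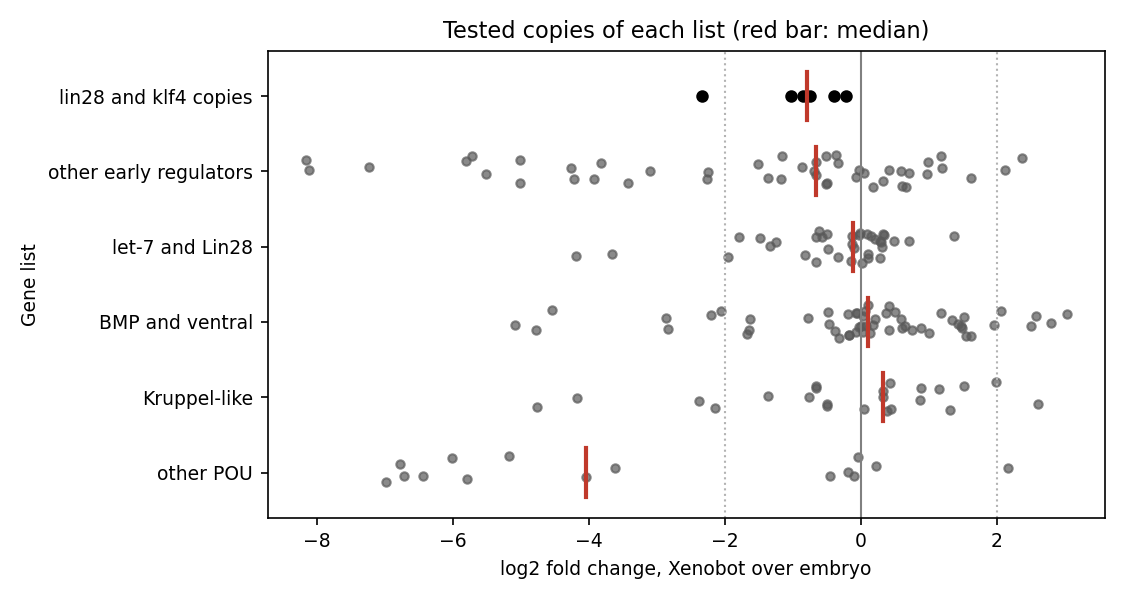
Log2 fold change of Xenobots over embryos (horizontal axis) for every tested copy of the lin28 and klf4 genes and of 5 gene lists, with red bars at the medians and dotted lines at -2 and 2. The medians are -0.80 for the members, -0.65 for other early regulators, -0.11 for the let-7 and Lin28 list, 0.11 for the BMP list, 0.33 for the Kruppel-like factors and -4.04 for other POU factors.

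The tested genes whose pattern over the 6 libraries was nearest to that of lin28b.L were cdk14.S, afap1.L and plpp3.L, at Euclidean distances of 0.154, 0.173 and 0.185 in centred log2 CPM among 19886 candidates. For klf4.L they were jmy.L, tmed8.S and ccdc124.L, at 0.125, 0.128 and 0.130.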

How the data were processed

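Stranded total RNA depleted of rRNA was sequenced from 3 Xenobot and 3 embryo pools. The authors trimmed reads with fastp, aligned them with STAR to the Xenopus laevis genome version 10.1 and deposited RSEM expected counts per gene. A second deposited table holds log2 CPM of 28009 rows with surrogate-variable effects removed by the authors, and served as an alternative. The number of surrogate variables and the tool versions are not given in the sources used here.

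Groups came from the sample titles, and 0 columns belonged to other samples. Rows above 0.6 CPM, before TMM scaling, in at least 3 libraries were kept (26752). The study states the same limit for its table of 28009 rows, which includes pou5f3.1.L, and the rule did not return that list from these 6 libraries. As in the study's methods, TMM factors (edgeR 4.0.16), voom and limma 3.58.1 served in R 4.3.3. The methods state no model terms, and group alone was used here rather than surrogate variables, with Benjamini-Hochberg adjustment over all tested rows, and thresholds of adjusted p under 0.05 and log2 fold change above 2 or below -2. Rounding of the expected counts was applied in edgeR (quasi-likelihood) and DESeq2 1.42.0 and not in voom. Sums of homeologs or families replaced their rows in a second fit. CPM values are TMM-scaled unless stated otherwise.

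The text names every member, up to 4 called genes per list, ranked by size of change at a mean of 1 CPM or more, markers at or near 0, and the 3 nearest patterns. The members and lists were chosen with earlier results of these data known. Positions came from the NCBI annotation, which held all 20 members. Levels per transcript length and sequence motifs were not analysed here. Scripts were tested on simulated data. Alternatives were other tests, scalings and filters, removal of rRNA rows, a replicate block, the deposited adjusted values and each pool left out. The gene list of the adjusted table, the filter on scaled CPM, the tandem ventx2 sums, the limma fit over homeolog pairs and the fixed rows of the leave-one-out fits were added after seeing the data.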

Additional observations from a re-analysis of the deposited data

How the results depend on the processing

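Of 372 alternative values, 345 kept their direction and side of the threshold or, for counts of copies, stayed within 1.5 times. None (0) reversed. The 345 include filtered fits of the pou5f3 sum and of the sum of the pou5f3.1 copies. These sums would not have passed the filter on their embryo pools alone, so those values are no further support. Members lower at the adjusted p numbered 4 to 5 with single pools left out. The number of members higher in Xenobots was 1, not 0, at either threshold with no filter, with filterByExpr, with the gene list of the adjusted table, with the filter on scaled CPM, without rRNA rows and in the deposited adjusted values. This was pou5f3.1.L, which those settings tested. Except for the fit with no filter, they let it in through its Xenobot pools and are no further support. Over all alternatives, lin28a.S lay between -2.52 and -2.20, lin28b.L between -0.998 and -0.75, lin28b.S between -0.87 and -0.61 and klf4.S between -1.14 and -0.63 on the log2 scale. In the deposited adjusted values, lin28a.L was at -0.74 (limma adjusted p = 0.000141), its lowest value over all alternatives. Fits of those values took no account of the surrogate variables already removed. Their p-values can therefore be too small and are not comparable with those of the other fits. With single pools left out, lin28a.L lay between -0.51 and -0.24 and klf4.L between -0.32 and -0.04. The klf4 sum then lay between -0.45 and -0.17 and the pou5f3 sum between 1.55 and 2.41. Copies higher past both thresholds then numbered 1 to 2 among other early regulators, 1 to 2 among Kruppel-like factors and 0 to 1 among other POU factors. The limma fit over all homeolog pairs gave 1.93 for lin28a and 0.80 for klf4, both called. Scaling by total counts moved the median of all tested rows to -0.21, against -0.07, and lin28b.L to -0.998.

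The deviations of same-numbered pools correlated at 0.06, 0.05 and 0.01, and those of differently numbered pools at -0.07 to 0.02. These small values cannot settle whether the pools were paired, and the main fit did not take the numbers as pairs. With the replicate block, lin28a.S had a log2 fold change of -2.33 and the pou5f3 sum 2.00, and the block changed no call of a member. Depth limits the pou5f3 and ventx copies, which had at most 25 counts in a pool.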

Other observations

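Relatives of the members outside the group were also measured. For comparison, 20.5% of all tested rows were lower and 5.75% higher past both thresholds, and 36.2% and 29.6% at the adjusted p alone. Of 23 tested copies of other Kruppel-like factors, 4 were lower and 1 higher past both thresholds in Xenobots, with 10 lower and 12 higher at the limma adjusted p alone. The higher one, klf15.S, was at 46.8 ± 6.50 CPM in Xenobots and 7.65 ± 1.00 CPM in embryos (SD, n = 3 each), for a log2 difference of 2.61 (SE 0.16). The klf12.S, klf12.L and klf7.S copies were lower, with log2 fold changes of -4.76, -4.18 and -2.39. Xenobot pools held only 1 to 3 counts of klf12.S and 1 to 4 of klf12.L.

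Of 15 tested copies of other POU factors, 9 were lower and 1 higher past both thresholds. The neural factors pou4f1.L and pou3f2.S were at 0 counts in every Xenobot pool, while pou3f4.L had 0 to 3 counts in Xenobots and 203 to 376 in embryos. The one higher copy was pou2f3.S, named after its values were seen, with 18 to 38 counts in Xenobots and 4 to 11 in embryos. It would not have passed the filter on its embryo pools alone, so this call is no further support. The call was also lost without embryo pool 3. The neural copies at or near 0 in Xenobots likewise passed the filter through their embryo pools only.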
